A study of Homo sapiens with 12 samples.

Results

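Potassium channel genes were followed as a family in LN229 and U251 cells, 2 established human glioblastoma lines. The members are the protein-coding genes whose name starts with KCN in the deposited tables. There are 96 of them among 19799 protein-coding genes and 58174 genes in all, and 26 further KCN names of other biotypes are not counted. By symbol, 39 encode pore-forming voltage-gated (Kv alpha) subunits, 14 Kv auxiliary subunits, 8 pore-forming subunits of calcium- and sodium-activated channels, 4 beta subunits of the BK channel, 16 inward rectifiers and 15 two-pore-domain channels. Each line was reverse transfected with siRNA against XRN2 (siXRN2), with a control siRNA (siNT) or without siRNA (mock), and RNA was taken at 72 hours. Every group holds 2 libraries, 12 in all. LN229 cells were grown in DMEM with 5% fetal bovine serum and U251 cells in EMEM with 10%, so that line and medium cannot be told apart. XRN2 is a nuclear exonuclease that degrades RNA from its 5′ end and takes part in transcription termination. The labels do not say whether the 2 libraries of a group came from separate cultures, so p-values measure the spread between these libraries, which may be technical.

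Potassium channels let potassium ions leave or enter the cell along their gradient and so set the membrane potential, the volume of the cell and, in excitable cells, the end of the action potential. Kv alpha subunits open on depolarisation and assemble with auxiliary subunits that alter gating or surface level. Calcium-activated channels link cytosolic calcium to potassium efflux, inward rectifiers carry potassium near the resting potential and take up external potassium in astrocytes, and two-pore-domain channels carry leak current. In glioma cells, the large-conductance BK channel KCNMA1 and the intermediate-conductance channel KCNN4 are known for their part in volume change and migration.

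The pore of these channels carries a signature of 5 codons, which code for threonine or serine, then threonine, valine, isoleucine, leucine or methionine, then glycine or serine, then tyrosine, phenylalanine or leucine, and last glycine. In the longest coding sequence of each member in GENCODE release 29, the signature was found at least 1 time in 78 of 78 members of the pore-forming classes and in 0 of 18 auxiliary or BK beta members. It was found in 3.38% of 19747 protein-coding genes with a full coding start. All 13 members with 2 matches are two-pore-domain channels, and the other 2 of that class, KCNK7 and KCNK15, had 1 match. The windows of the members on which the results turn are shown to make the classes comparable, with the signature in capitals and 2 codons on either side in lower case.
KCNA2: atgacaACTGTAGGCTATGGAgacatg
KCNG1: atgacgACGGTGGGCTATGGCgacatg
KCNS3: atgacaACTGTGGGCTATGGAgacacc
KCNQ5: ttgacaACTATTGGCTATGGAgacaaa
KCNMA1: atgtccACCGTTGGTTATGGGgatgtt
KCNN4: ttcctgACCATCGGCTATGGTgacgtg
KCNN3: ttccttTCCATTGGTTATGGGgacatg
KCNT2: ttttctACTGTGGGCTTCGGGgatgtc
KCNK5, first pore: attaccACCATTGGATATGGCaatgtg
KCNK5, second pore: atctccACCATCGGCTTCGGTgacttt
KCNT2 and the second pore of KCNK5 have a phenylalanine codon where the other windows shown have a tyrosine codon.

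Libraries held 4846768 to 7469052 exon reads. Levels are given as total exon reads per 1000000 (counts scaled to library size, CPM), with library totals adjusted by the trimmed mean of M-values (TMM). XRN2 itself fell in the siXRN2 libraries, by 2.90 (SE 0.17) on the log2 scale against siNT in LN229 and by 2.28 (SE 0.17) in U251 (edgeR quasi-likelihood test, adjusted p = 3.75e-06 and 6.50e-05). LN229 siNT 1 stood apart from its replicate by a trend with exon length (Spearman's rho of the difference -0.49 across 14232 genes, which are not independent replicates). The 2 U251 mock libraries had the highest chi-square per gene between replicates, 25.9, which does not tell which of them departs. Intron reads of the members came to 89.4 per 1000000 gene reads in LN229 siNT 1 and to 149 to 184 in the other LN229 libraries. GFAP, the astrocyte filament, ranged from 1.05 to 6903 CPM and was high in U251 alone, as was SLC1A3 (90.02 to 104 CPM by group mean), while S100B and OLIG2 were higher in LN229 (316 to 432 and 7.82 to 8.76 CPM by group mean, against 17.2 to 20.8 and 0 to 0.0807). The 8 glial genes listed summed to 2783 to 3679 CPM in LN229 siXRN2 against 4310 to 5765 in the LN229 controls. By group mean there, VIM, NES, SOX2 and OLIG2 were below mock and siNT, GFAP, S100B and FABP7 between them, and SLC1A3 above. Among markers of other cell types, the 4 oligodendrocyte genes summed to 333 to 451 CPM in LN229 siXRN2 against 187 to 225 in the LN229 controls, and the 6 neuronal genes to 120 to 143 against 72.5 to 83.7, with STMN2 at 0 in every library. The 3 endothelial markers summed to 5.79 to 6.84 CPM in the siXRN2 libraries of both lines against 2.91 to 4.23 in the controls, and the blood and muscle markers to at most 0.675 CPM. The oligodendrocyte genes did not move as one, and MAG was lower in LN229 siXRN2 than in LN229 mock or siNT by group mean (4.39 against 7.55 and 7.65 CPM). Nor did the neuronal genes: GAD1 was 71.1 CPM in LN229 siXRN2 against 28.5 and 27.8 in mock and siNT by group mean. SNAP25 was 34.1 against 21.6 and 28.1 CPM, and SYT1 24.6 against 25.6 and 25.8 CPM. In the 2 U251 mock libraries the neuronal sum was 17.2 and 59.2 CPM, the higher one through SYT1 alone, at 55.7 CPM, with GAD1 and SNAP25 at their lowest of all libraries, 2.42 and 1.13 CPM. The part of these markers in the results was not tested. In bulk RNA, fewer cells expressing a gene and less RNA per cell cannot be told apart.

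The control level of a line is the mean over its 2 mock and 2 siNT libraries. A large part of the family had few or no exon reads. Of the 96 members, 28 passed the filter on low counts and were tested, 15 had no exon read in any library, 51 reached 1 to 9 exon reads at most, and 2 failed the filter with a maximum of 11, the inward rectifiers KCNJ3 and KCNJ6. An exon count of 0 did not mean that a gene had no reads. KCNQ1, with 0 exon reads, had 96 to 365 intron reads in each LN229 library and 46 to 103 in each U251 library. The library kit keeps no strand information, and whether these intron reads came from KCNQ1 transcripts was not tested. A count of 0 allows up to 3 reads, or 0.381 to 0.605 CPM in these libraries, when counting error alone is considered. By class, 10 Kv alpha, 7 Kv auxiliary, 4 calcium- and sodium-activated, 2 BK beta, 3 inward rectifier and 2 two-pore-domain genes were tested. Of the 28, 17 passed through both lines, 8 through LN229 alone (KCNA2, KCNN3, KCNJ10, KCNT2, KCNH1, KCNK5, KCNH3 and KCNG1) and 3 through U251 alone (KCNAB1 and KCNMB4 among them). Those 11 were bound to be uneven between the lines, so their line differences are given as reads or ratios, as descriptions.

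**Figure D1:**
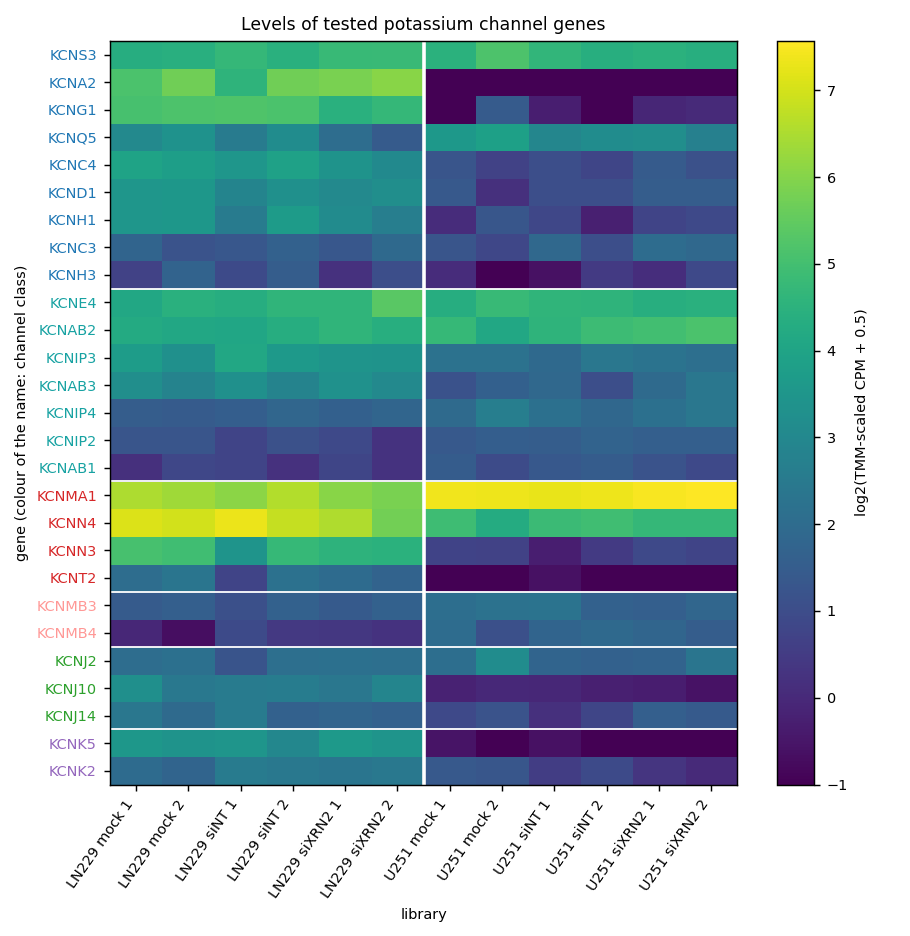
Level of the tested members described here (rows, grouped and coloured by class) in each of the 12 libraries (columns), as log2 of TMM-scaled CPM plus 0.5. KCNMA1 is the brightest row in U251, KCNN4 in the LN229 controls, and KCNA2 is dark in all 6 U251 libraries.

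The members summed to 492 ± 21.3 CPM in the LN229 controls and to 316 ± 10.5 CPM in the U251 controls (SD, n = 4 libraries of 2 treatments). Calcium- and sodium-activated subunits made up the largest class in both lines, with 247 ± 14.6 CPM in LN229 and 190 ± 7.76 CPM in U251. Kv alpha genes came to 146 ± 19.8 CPM in LN229 and 46.1 ± 9.79 CPM in U251, and two-pore-domain genes to 15.7 ± 1.61 and 2.04 ± 0.569 CPM. Those 3 classes had higher sums in each of the 4 LN229 controls than in any U251 control. Kv auxiliary genes summed to 65.1 ± 3.66 CPM in LN229 and 63.6 ± 3.01 CPM in U251, with overlapping libraries. The BK beta sum was lower in LN229, at 3.09 ± 0.304 CPM against 6.69 ± 0.845 CPM. Inward rectifiers came to 15.4 ± 2.41 CPM in LN229 and 7.68 ± 4.08 CPM in U251, where mock 2 held the highest sum, 13.6 CPM. KCNMA1 alone took 49.98% to 52.5% of all member reads in a U251 control and 14.5% to 19.3% in an LN229 control. Class sums are descriptions and were not tested.

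**Figure D2:**
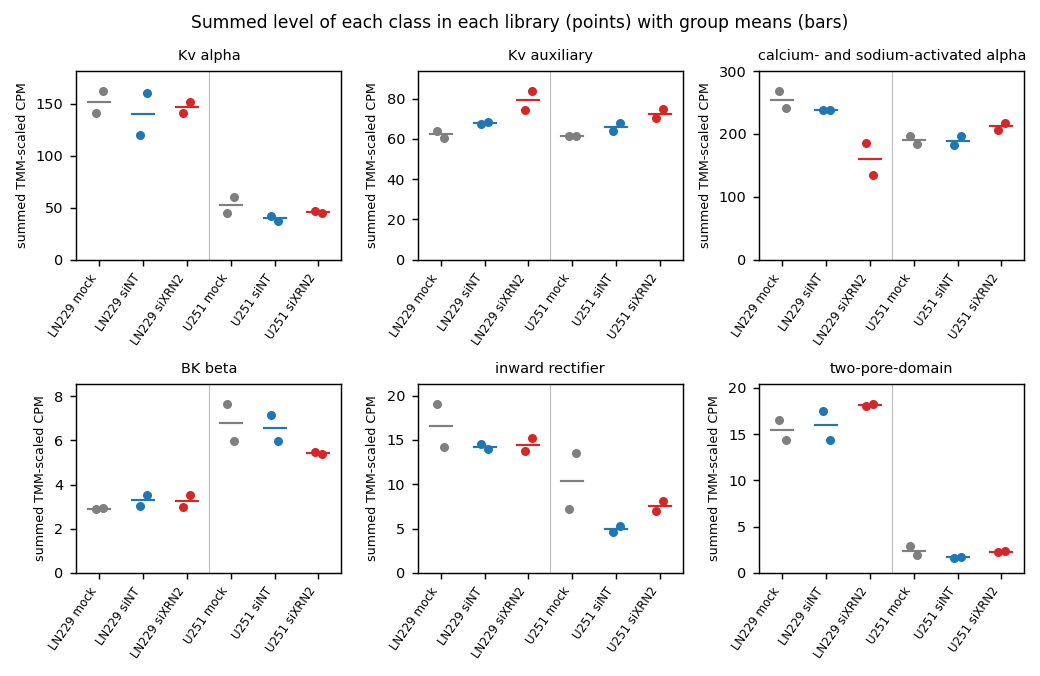
Summed TMM-scaled CPM of each channel class (vertical axes, from 0) in every library (points), with the mean of each group of 2 as a bar. The Kv alpha and two-pore-domain sums separate the lines. Among the LN229 libraries, the calcium- and sodium-activated sum is lowest in the 2 siXRN2 libraries.

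Between the control libraries of the 2 lines, most tested channel genes differed, at a rate close to that of all genes. Of 28 members, 22 passed the threshold of 0.05 on the adjusted p, 15 higher in LN229 and 7 higher in U251, where 67.0% of all 14232 tested genes passed (34.9% higher in LN229 and 32.1% higher in U251). Among genes that passed the count filter through both lines, 11 of 17 members (64.7%) and 64.2% of all genes were called. Without TMM factors the split of the called members was 15 to 4. Libraries of the lines did not overlap for 21 of the 28, against 60.0% of all genes. These shares are not alike in make-up. Of the 28, 8 passed the filter through LN229 alone and 3 through U251 alone, against 1301 and 748 of all tested genes. Such genes were bound to be uneven, and the overlap was not counted without them.

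Among the calcium-activated channels, KCNMA1, the pore of the BK channel on chromosome 10 (76869601 to 77638369, minus strand), had 91.5 and 81.1 CPM in LN229 mock, 67.0 and 96.2 in LN229 siNT, 167 and 163 in U251 mock and 154 and 165 in U251 siNT. All U251 controls lay above all LN229 controls, and the difference was -0.95 (SE 0.12) on the log2 scale, LN229 minus U251 (edgeR, adjusted p = 1.04e-05). The BK beta subunits, which shift the calcium and voltage dependence of the BK channel, also had lower levels in LN229. KCNMB4 had 1 to 7 reads in the LN229 controls and 10 to 19 reads in the U251 controls (ratio of control reads 4.41 in favour of U251, 95% counting interval 2.53 to 8.17). KCNMB3 differed by -0.71 (SE 0.27, edgeR adjusted p = 0.0339) with overlapping libraries, and 47.5% of its exon bases are shared with other genes, among them PIK3CA on the opposite strand. Its call was lost without LN229 mock 1, mock 2 or siNT 1 and without U251 mock 2 or siNT 1.

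KCNN4, the intermediate-conductance calcium-activated channel on chromosome 19, had the opposite pattern. Its level was 140 and 125 CPM in LN229 mock, 160 and 112 in LN229 siNT, 29.2 and 19.0 in U251 mock and 28.3 and 30.1 in U251 siNT. No LN229 control fell to the range of U251, and the log2 difference was 2.34 (SE 0.19, edgeR adjusted p = 2.52e-07), a 5.06-fold higher level in LN229. KCNN3, a small-conductance channel, had 33.3 and 30.2 CPM in LN229 mock and 10.3 and 26.4 in LN229 siNT. U251 controls held 6, 7, 2 and 5 reads of KCNN3, 20 in all against 654, a ratio of 30.6 (95% counting interval 19.6 to 50.4). The lowest LN229 value came from siNT 1, the library with the exon length trend, and the exon model of KCNN3 is 13598 bases long. KCNT2, a sodium-activated channel, had 89 reads in the LN229 controls and 1 in those of U251, a ratio of 83.2 (counting interval 14.5 to 3322). Counting intervals cover counting error only.

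Among the Kv alpha genes, KCNA2, a delayed rectifier of axons in the Shaker family (chromosome 1, 110519837 to 110631474, minus strand), had 34.9 and 52.2 CPM in LN229 mock and 23.4 and 52.2 in LN229 siNT, and no read in any of the 6 U251 libraries. With 1055 reads against 0 and a floor of 3 reads in each U251 library, its control level was at least 78.8-fold higher in LN229. KCNG1, a subunit that forms no channel of its own and modifies those of other Kv subunits, had 33.3 and 35.9 CPM in LN229 mock and 36.3 and 35.2 in LN229 siNT. Its reads in the U251 controls were 0 and 14 in mock and 2 and 0 in siNT, so that 14 of 16 came from mock 2. The ratio of control reads was 51.4 (counting interval 31.5 to 90.3). Of the KCNG1 reads in the LN229 groups 33.2% to 38.7% were unique.

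Further Kv alpha genes were higher in LN229. KCNC4, a fast-deactivating channel, had 10.9 to 15.04 CPM in the LN229 controls and 1.13 to 1.91 in those of U251 (log2 difference 3.19, SE 0.23). KCND1, an A-type channel, differed by 2.68 (SE 0.27). KCNH1, of the ether-a-go-go family, had 257 reads in the LN229 controls and 25 in those of U251, a ratio of 9.61 (counting interval 6.36 to 15.1). KCNH3, of the same family, had 7, 22, 7 and 14 reads against 3, 0, 1 and 5, a ratio of 5.19 (counting interval 2.53 to 12.01), and its fitted log2 difference ran from 1.82 to 4.27 with each library left out. For KCNH1, 53.0% of the exon bases are shared with other genes. KCNS3, another silent subunit, was at a like level in both lines, with 19.8 to 25.8 CPM in LN229 and 20.1 to 36.0 CPM in U251 (log2 difference -0.23, SE 0.15, edgeR adjusted p = 0.203). KCNQ5, a subunit of the slow M-type current (chromosome 6, 72621792 to 73198851, plus strand), had 5.45 to 9.77 and 7.16 to 14.0 CPM (log2 difference -0.34, SE 0.21, edgeR adjusted p = 0.159).

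Kv auxiliary genes went in both directions. KCNIP3, a calcium-binding protein that joins A-type channels, had 9.26 to 16.9 CPM in the LN229 controls and 3.34 to 4.76 in those of U251 (log2 difference 1.61, SE 0.20). KCNAB3, a cytosolic beta subunit, was higher in LN229 by 1.76 (SE 0.27). The other beta subunits KCNAB2 and KCNAB1 were lower in LN229, KCNAB2 by -0.41 (SE 0.15, edgeR adjusted p = 0.0299) and KCNAB1 with 24 control reads against 47, as was KCNIP4, by -0.69 (SE 0.26, adjusted p = 0.0292). The calls of KCNAB2 and KCNIP4 were lost without LN229 mock 1, mock 2 or siNT 1, that of KCNAB2 also without U251 mock 1 or siNT 2, and that of KCNIP4 without U251 mock 2 or siNT 1 and with unique reads, which made up 15.2% to 30% of its reads in each LN229 group. KCNE4, a single-span subunit that can inhibit Kv channels, had 17.1 to 24.1 CPM in LN229 and 19.7 to 26.8 CPM in U251 (log2 difference -0.19, SE 0.18, edgeR adjusted p = 0.359).

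Of the inward rectifiers, KCNJ10, the main potassium uptake channel of astrocytes, had 9.12 and 4.95 CPM in LN229 mock and 5.45 and 5.56 in LN229 siNT, and 2 or 3 reads in each U251 control. The ratio of its control reads was 14.6 (counting interval 7.72 to 31.0). KCNJ14 was higher in LN229 by 1.73 (SE 0.33), and 24.98% of its exon bases are shared with other genes. KCNJ2, a strong inward rectifier, did not pass (edgeR adjusted p = 0.393), and its U251 controls had 20, 52, 18 and 15 reads, the highest in mock 2. KCNK5, an acid-sensitive two-pore-domain channel, had 11.2 and 10.0 CPM in LN229 mock and 10.5 and 7.24 in LN229 siNT, and 244 reads in all against 2 in the U251 controls, a ratio of 114 (counting interval 31.2 to 947). KCNK2, a mechanosensitive channel of the same class, was higher in LN229 by 1.39 (SE 0.26). Its call was lost with the mock libraries alone as controls, where the log2 difference was 0.66 (edgeR adjusted p = 0.132), and the difference ranged up to 2.12 over the alternatives run, reached with the siNT libraries alone. Among untested members, KCNJ3 had 22 reads in the LN229 controls and 0 in those of U251, and KCNG3 had 19 and 0. KCNJ6 had 0 and 15 reads and KCNH2 0 and 13, each higher in U251.

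**Figure D3:**
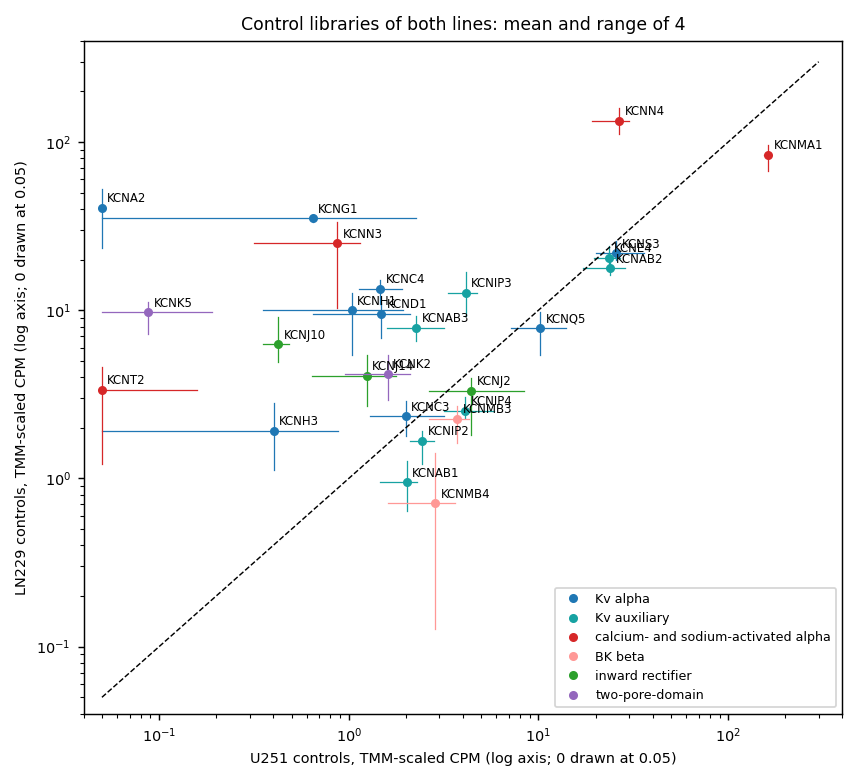
Mean level of the tested members described here in the 4 LN229 controls (vertical log axis, TMM-scaled CPM) against the 4 U251 controls (horizontal log axis), coloured by class, with bars from the lowest to the highest library and a dashed line of equal level. Values of 0 are drawn at 0.05, and the points of KCNA2, KCNG1, KCNN3, KCNT2 and KCNK5 lie far above the line while KCNMA1 lies below it.

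Per kilobase of exon, the order of the genes differed from that by reads, since the exon models run from 3131 bases for KCNS3 to 35644 for KCNMA1. On this scale KCNN4 led in the LN229 controls with 40.8 ± 6.30 CPM per kb (SD, n = 4). KCNS3 followed with 6.99 ± 0.856 and KCNG1 with 6.47 ± 0.247, which did not differ beyond their spread, and then KCNE4 with 4.99 ± 0.706. KCNK5, KCNMA1 and KCNA2 came next with 2.59 ± 0.462, 2.35 ± 0.363 and 2.34 ± 0.812 CPM per kb, within the spread of each other. In U251, KCNS3 with 8.20 ± 2.28 and KCNN4 with 8.11 ± 1.56 CPM per kb stood level, followed by KCNE4 with 5.68 ± 0.706 and KCNMA1 with 4.55 ± 0.161. The models join the exons of every transcript, so a gene with long rare exons has a lower value on this scale.

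The line difference was also tested in the siXRN2 libraries, which the comparison of controls does not use as samples, although all groups share an estimate of the spread. There 20 of 28 members were called, 14 higher in LN229 and 6 higher in U251, with 54.3% of all genes called (26.8% higher and 27.4% lower). Among genes that passed the count filter through both lines, 64.7% of members and 50.6% of all genes were called. The 17 members called in both comparisons had the same direction in each, and they are 77.3% of those called in controls and 85.0% of those called in siXRN2 libraries. KCNAB1, KCNMB3, KCNIP4, KCNH3 and KCNJ14 were called in controls alone, and KCNE4, KCNQ5 and KCNIP2 in siXRN2 libraries alone. Whether the line difference of these 8 genes changed with siXRN2 was tested only for the change against siNT, by the interaction reported further on, in which no gene passed.

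In LN229, no tested potassium channel gene passed the threshold for siXRN2 against siNT, and KCNQ5 fell against mock. Against siNT, 0 of 28 members were called by edgeR (4 at an unadjusted p under 0.05, while DESeq2 called KCNN4 alone), where 3.16% of all genes were called. Against mock, KCNQ5 was the 1 member called of 28, where 1.29% of all genes were called (0.738% lower), and DESeq2 called it too. The 2 comparisons share the siXRN2 libraries. Members' fitted log2 changes had a median of 0.02 against siNT and -0.18 against mock, beside 0.00 and 0.00 for all genes.

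KCNQ5 had 7.68 and 9.77 CPM in mock, 5.45 and 8.42 in siNT and 3.66 and 2.28 in siXRN2. Both siXRN2 libraries were below all 4 controls. It fell by 1.53 (SE 0.33) against mock on the log2 scale (edgeR, adjusted p = 0.0416), and its change against siNT was -1.20 (SE 0.34, adjusted p = 0.0710). The call against mock was lost, with adjusted p of 0.0575 to 0.511, when LN229 mock 1, mock 2 or siXRN2 2, or any U251 siNT or siXRN2 library, was left out, and in a fit of the compared groups alone. Without LN229 siNT 1 and U251 mock 2 together it passed in both comparisons. Intron reads of KCNQ5, from the same libraries but outside the exon counts, were 3.68 and 5.72 per 1000000 gene reads in LN229 mock. They were 3.51 and 5.63 in LN229 siNT and 1.75 and 1.97 in LN229 siXRN2 (11 to 47 reads), again lowest in siXRN2. In U251 they were 4.27 and 6.52 in mock, 5.21 and 1.66 in siNT and 2.18 and 1.32 in siXRN2. A U251 control library thus lay below both LN229 siXRN2 libraries. In U251 the gene had 11.3 and 14.0 CPM in mock, 7.16 and 8.45 in siNT and 8.92 and 6.08 in siXRN2, with log2 changes of -0.75 (SE 0.29) against mock (edgeR adjusted p = 0.396) and -0.05 (SE 0.30, adjusted p = 1.00) against siNT.

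KCNN4 had 140 and 125 CPM in LN229 mock, 160 and 112 in siNT and 94.2 and 53.3 in siXRN2. The siXRN2 libraries lay below all controls but differed widely from each other. Its log2 change was -0.88 (SE 0.25, edgeR adjusted p = 0.0735) against siNT and -0.84 (SE 0.25, adjusted p = 0.116) against mock. Without siXRN2 1 the change against siNT was -1.36 (adjusted p = 0.0154), without siXRN2 2 it was -0.53 (adjusted p = 0.546), and without siNT 2 it was -1.11 (adjusted p = 0.0251). KCNN4 in U251 was 29.2 and 19.0 CPM in mock, 28.3 and 30.1 in siNT and 25.7 and 25.7 in siXRN2, with overlapping groups.

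KCNMA1 was 91.5 and 81.1 CPM in LN229 mock, 67.0 and 96.2 in siNT and 65.7 and 57.2 in siXRN2, the siXRN2 libraries being lowest by a narrow margin to siNT 1. The log2 change was -0.41 (SE 0.17, edgeR adjusted p = 0.179) against siNT and -0.49 (SE 0.17, adjusted p = 0.167) against mock, and without LN229 siNT 1 and U251 mock 2 together it passed in both. In U251 its 2 siXRN2 libraries, at 179 and 190 CPM, were above all 4 controls, at 154 to 167 CPM, with a log2 change of 0.21 (SE 0.16, edgeR adjusted p = 1.00) against siNT.

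Other members of LN229 stood apart from the controls without passing. The siXRN2 libraries did not overlap the 4 controls for 8 of 28 members, against 32.8% of all genes (16.0% higher and 16.9% lower). The 5 lower members were KCNC4, KCNQ5, KCNMA1, KCNN4 and KCNG1, and the 3 higher were KCNAB2, KCNA2 and KCNS3. KCNG1, at 21.3 and 25.4 CPM against 33.3 to 36.3 CPM, had a log2 change of -0.62 (SE 0.32, edgeR adjusted p = 0.280) against siNT. KCNA2, at 57.1 and 65.4 CPM against 23.4 to 52.2 CPM, had one of 0.68 (SE 0.35, adjusted p = 0.304), with its lowest control in siNT 1. KCNE4 had 23.7 and 40.9 CPM against 17.1 to 24.1 CPM, overlapping the controls, and a log2 change of 0.54 (SE 0.24, adjusted p = 0.211). The sum of the calcium- and sodium-activated class was 254.5 ± 19.7 CPM in mock, 239 ± 0.133 in siNT and 160 ± 36.2 in siXRN2 (SD, n = 2), and KCNN4 and KCNMA1 carried most of that distance. The Kv auxiliary sum was 62.2 ± 2.55, 68.0 ± 0.567 and 79.1 ± 6.68 CPM in the same order.

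**Figure D4:**
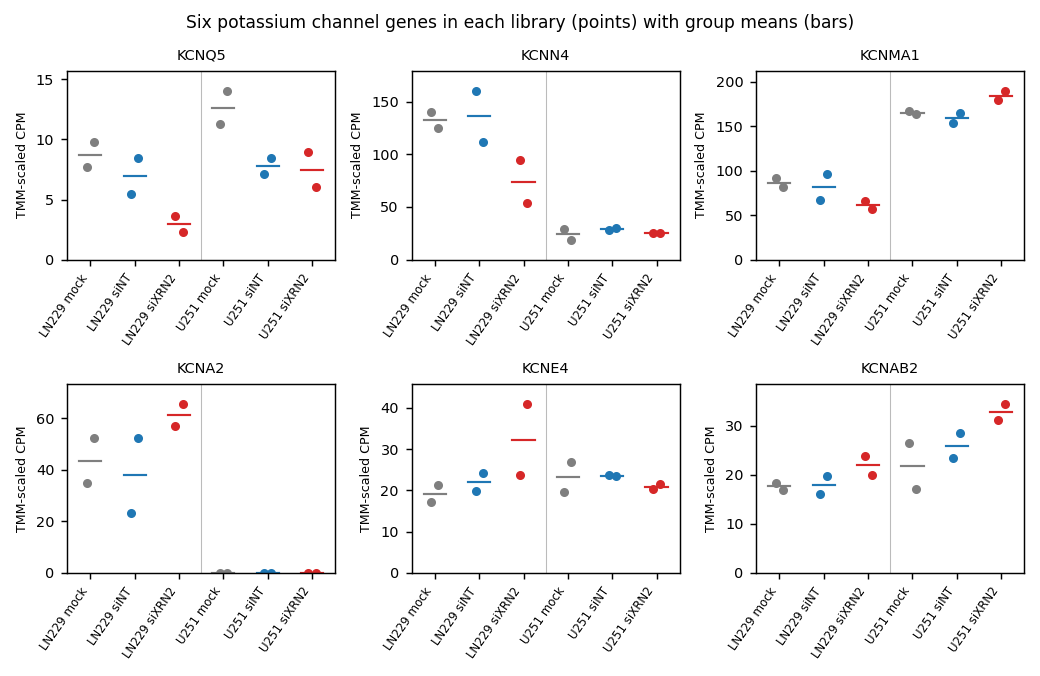
TMM-scaled CPM (vertical axes, from 0) of KCNQ5, KCNN4, KCNMA1, KCNA2, KCNE4 and KCNAB2 in each library (points) with group means (bars), LN229 left and U251 right of the grey line. Among the LN229 libraries, KCNQ5 and KCNN4 are lowest in siXRN2. KCNMA1 is lower in the LN229 siXRN2 libraries and higher in the U251 siXRN2 libraries than in the controls of the same line.

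In U251, no member passed in either comparison. Against siNT, 0 of 28 were called by edgeR (2 with an unadjusted p under 0.05, and 0 by DESeq2), where 0.00703% of all genes were called, which is XRN2 alone. Against mock, 0 of 28 were called (7 with an unadjusted p under 0.05, and 0 by DESeq2), where 0.0492% of all genes were called. KCNJ14 had 4 and 7 reads in siNT and 17 and 13 in siXRN2 (log2 change 1.34, SE 0.52, adjusted p = 1.00), and KCNAB3 20 and 9 against 23 and 28 (0.74, SE 0.40, adjusted p = 1.00).

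Against mock in U251, the smallest p-values belonged to KCNK2, KCNAB2 and KCNQ5. KCNK2 had 11 and 12 reads in mock, 6 and 8 in siNT and 5 and 3 in siXRN2 (log2 change against mock -1.64, SE 0.46, edgeR adjusted p = 0.334). KCNAB2 had 26.6 and 17.1 CPM in mock, 23.4 and 28.5 in siNT and 31.2 and 34.4 in siXRN2, above every control, with a log2 change of 0.59 (SE 0.21, adjusted p = 0.382). It was likewise above the controls in LN229, at 23.9 and 19.99 CPM against 16.1 to 19.7 CPM. Without U251 mock 1, KCNAB2 and KCNS3 were called against mock in U251. The siXRN2 libraries of U251 did not overlap the 4 controls for 10 of 28 members (8 higher and 2 lower), against 24.4% of all genes (13.8% higher and 10.6% lower). Among untested members, KCNE1B had 1 read over the 4 U251 controls and 6 and 5 in siXRN2, and KCNK3 had 1, 0, 1 and 1 in the controls and 7 and 7 in siXRN2. KCNE1B has a near-identical copy in KCNE1, so its reads are uncertain.

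The change with siXRN2 against siNT was compared between the lines by an interaction term. None of the 28 members was called, nor any of the 14232 genes (0% called), while 3 members reached an unadjusted p under 0.05 and 0 passed with DESeq2. KCNJ14 had the smallest p, with a difference of -1.85 (SE 0.66, edgeR adjusted p = 0.713), LN229 change minus U251 change. The difference was -0.62 (SE 0.24, adjusted p = 0.731) for KCNMA1 and -1.15 (SE 0.46, adjusted p = 0.732) for KCNQ5. The difference between lines of the change against mock was not tested. Control siRNA against mock gave 0 of 28 members and 0% of all genes in each line (edgeR; 2 members in LN229 and 3 in U251 with an unadjusted p under 0.05, and 0 by DESeq2).

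Genes that work with potassium channels were taken from a list of 63 channel partners, sodium-potassium pump and cation-chloride cotransport genes, regulators and scaffolds, and volume and calcium partners. Of these, 43 were tested. In the line difference of controls 14 were higher in LN229 and 15 lower, beside the 67.0% called of all genes. SLC12A7, a potassium-chloride cotransporter, had 34.8 and 33.9 CPM by group mean in LN229 mock and siNT, and 0.0807 and 0.176 in U251 mock and siNT. Near 0 in U251, it was bound to be uneven between the lines, so these levels are a description. ITPR1, a calcium release channel, and the scaffold DLG1 were lower in LN229, by -2.36 (SE 0.18) and -1.82 (SE 0.13). In LN229, FXYD5, a regulator of the sodium-potassium pump, had 124 ± 3.65 CPM in mock, 145 ± 50.8 in siNT and 57.7 ± 19.7 in siXRN2 (SD, n = 2). It fell by 1.32 (SE 0.24) against siNT (edgeR, adjusted p = 0.0178) and by 1.10 (SE 0.23) against mock (adjusted p = 0.0416), the 1 of 43 called against siNT. NEDD4L, a ubiquitin ligase known to act on KCNQ channels, had 83.2 ± 6.57 CPM in mock, 76.1 ± 7.72 in siNT and 50.6 ± 3.86 in siXRN2. It fell by 0.71 (SE 0.15) against mock (edgeR, adjusted p = 0.0372) and did not pass against siNT (log2 change -0.59, SE 0.15, adjusted p = 0.0508). The call of FXYD5 against siNT was not kept in every fit with a library left out. Against mock, FXYD5 and NEDD4L did not both keep their calls in every such fit. None of the 43 was called in U251 against siNT or mock.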

How the data were processed

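Total RNA of 12 libraries was sequenced on a MiSeq from TruSeq RNA v2 libraries, per the labels' protocols. Groups and replicate numbers come from the sample titles. Per the file headers, the authors deposited whole-number counts of total and unique exon reads and of intron reads per gene. Builds GRCh37 and hg19 stand in the submitters' processing notes, yet 88 of 96 members have their GENCODE 29 (GRCh38) position, so positions are GRCh38. Not given in the sources used here are the aligner, the counter and the treatment of reads with several matches. Overlapping genes share reads because that kit keeps no strand information.

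Total exon counts were filtered with filterByExpr (minimum count 10, total 15; 14232 genes left), scaled by TMM and fitted with edgeR 4.0.16 in R 4.3.3 (quasi-likelihood F-test, robust, 1 mean per group, 6 residual degrees of freedom), and p-values were adjusted by Benjamini-Hochberg over all tested genes at 0.05. The fit was tested on simulated data. Errors are SE of log2 fold changes or SD over libraries, and ratios of reads have exact 95% intervals. Named are XRN2, members called in any contrast, members with at least 5 CPM in a group, those leading their class per kilobase, and the 3 with the smallest p where none passed. Some items picked by this rule are not reported here. Untested members with uneven reads were named after their values were seen. The members and lists were chosen with earlier results of these data known. Alternatives were other scalings, DESeq2 1.42.0, other filters, a replicate block, unique reads, other controls and leaving out libraries. No replicate pair agreed within sampling noise (chi-square per gene 1.74 to 25.9).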

Additional observations from a re-analysis of the deposited data

Results flagged for a closer look

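KCNMA1 was lower in both LN229 siXRN2 libraries than in all 4 LN229 controls and higher in both U251 siXRN2 libraries than in all 4 U251 controls, opposite directions that drew attention. Of all tested genes, 16.9% lay below all controls in LN229 and 13.8% above all controls in U251. The share of genes with both was not counted, so the pattern may be common. The test of the difference between lines gave -0.62 (SE 0.24) on the log2 scale and did not pass (edgeR, adjusted p = 0.731).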

How the results depend on the processing

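Counts of members called for the line difference in controls were 22 as reported and 18 to 22 with each library left out, 15 with at least 5 CPM in 2 libraries, 17 with siNT and 18 with mock controls alone, 19 in the compared groups alone, 21 with DESeq2 and 27 with no filter. For siXRN2 against siNT in LN229, members called were 1 with DESeq2, 3 with no filter, 2 without LN229 siNT 1 and U251 mock 2 together and 0 to 3 with each library left out (all genes 753 with DESeq2, 1550 with no filter, 4 in the compared groups alone and 1 to 3296). Against mock in LN229 they were 3 with no filter, 4 without both of those libraries, 0 in the compared groups alone and 0 to 3 with each library left out (all genes 398 with DESeq2, 1026, 1577, 103 and 1 to 658). In U251 against siNT, members called were 1 in the compared groups alone and 0 with each library left out (all genes 497 in those groups, 7 with DESeq2, 69 with no filter, 4 with unique reads, 22 without both libraries and 1 to 8). Against mock in U251, members were 0 to 2 with each library left out (all genes 31 with DESeq2, 502 with no filter, 1 in the compared groups alone and 1 to 768). For control siRNA against mock, members were 0 to 1 in each line with each library left out (all genes 70 in LN229 and 247 in U251 with no filter, 0 to 1913 and 0 to 475). For the difference between lines, members were 0 to 1 (all genes 14 with DESeq2, 144 with no filter and 0 to 1115).

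Replicate numbers did not pair the libraries (correlations of deviations -0.0676 to 0.0963). With the replicate block, 1 member, KCNN4, was called for siXRN2 against siNT in LN229, where 0 were called without it, and the other counts of members were as without it or within 1.5 times. Signs turned for genes that passed no threshold. The line difference of KCNJ2 was 0.23 without LN229 siNT 1 and U251 mock 2 together, 0.072 with siNT controls alone and -0.65 to 0.031 with each library left out (positive without U251 mock 2), and that of KCNS3 0.066 with siNT controls alone. KCNJ14 against mock in U251 was -0.051 with unique reads, and KCNQ5 against siNT in U251 was -0.36 to 0.19 with each library left out (0.071 without siNT 2 and 0.19 without siXRN2 2). The cause was not tested. With 2 libraries a group and 4846768 reads in the smallest library, members under 10 reads could not be compared between treatments.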
